A study of Homo sapiens with 14 samples.

Results

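The genes described here are NFE2L2, which encodes the transcription factor NRF2, its inhibitor gene KEAP1, and 32 genes reported as NRF2 targets, together 34 of the 57756 genes listed in the deposited isoform tables. They were chosen by gene symbol from knowledge of the pathway. All 34 symbols were found in all 14 libraries, and all 34 genes passed the filter on low values (a mean of at least 1 FPKM, the fragment number scaled to transcript length and library size). They hold 283 isoforms, of which 83, from 27 of the genes, varied enough in usage to be tested.

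RNA was sequenced from A549, an established human lung carcinoma line, in 7 groups of 2 libraries. In 4 groups U2AF1 was knocked down with a siRNA and a viral construct then supplied U2AF1 isoform v1 or v3 with the S34F change (v1 S34F, v3 S34F) or without it (v1 wild type, v3 wild type). The knockdown group received the same siRNA with an empty vector, the control siRNA group an empty vector with a control siRNA, and the untreated group neither. The groups therefore differ in U2AF1, a splicing factor subunit that contacts the AG at the 3′ end of introns. S34F is a recurrent cancer mutation that is known to shift which bases next to that AG are preferred. All groups share the genotype of A549, which is known to carry a KEAP1 mutation. The FPKM tables cannot show that variant, and the series holds no line with intact KEAP1 for comparison. The labels do not state whether the 2 libraries of a group are separate cultures, so the p-values rest on a spread that may be technical. In bulk RNA a fall in a gene can be fewer cells or less RNA per cell, and these cannot be told apart.

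NRF2 is a transcription factor that KEAP1 binds and hands to a ubiquitin ligase for degradation. Oxidants and electrophiles block this, and so does loss of KEAP1, after which NRF2 enters the nucleus, pairs with a small MAF protein and binds antioxidant response elements. Its targets make glutathione and NADPH, run the thioredoxin system, detoxify carbonyls and quinones, store iron and export conjugates, and A549 is a standard example of a lung tumour line in which they are constantly on.

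The libraries held an estimated 13990000 to 21010000 fragments (lowest in v1 S34F replicate 2, highest in knockdown replicate 2), and each of the 34 genes had an estimated 105 fragments or more in every library. U2AF1 stood at 2180 and 3852 FPKM with v1 S34F, 2114 and 3239 with v3 S34F, 2351 and 2877 with v1 wild type, 2366 and 3313 with v3 wild type, 16.2 and 28.9 in the knockdown, 117 and 119 with the control siRNA, and 128 and 142.5 in untreated cells. It was thus lowest in both knockdown libraries and far above the untreated level in all 8 re-expression libraries. FPKM cannot tell transgene from endogenous transcripts. Of the epithelial markers, KRT7, KRT8 and KRT18 exceeded 1000 FPKM in every library, while KRT19 stood at 10.2 to 76.8, CDH1 at 8.71 to 34.8, EPCAM at 2.20 to 5.53 and CLDN4 at 0.62 to 1.99 FPKM. Of the alveolar and airway markers, SFTPA1 was listed at 0 throughout and NKX2-1 reached at most 0.18 FPKM. AGER stood at 0.89 to 4.69 FPKM and NAPSA at 0.56 to 1.72 FPKM. Of the fibroblast markers, DCN was listed at 0, while COL1A1 stood at 6.60 to 9.37 FPKM and THY1 reached 5.89. Of the leukocyte markers, PTPRC reached at most 0.52 FPKM, while CD14 reached 2.58 and CD68, a lysosomal gene, stood at 14.4 to 60.2. Replicate 2 of both S34F groups was picked out as unusual after the data were seen, and no distance between libraries is given here. In v1 S34F replicate 2 an isoform of AL132768.1, no member of the list, took 33.1% of the FPKM sum. The S34F counts, and the changes named here that depended on these replicate 2 libraries, are therefore also given without them. Those fits keep replicate 2 of both wild-type groups and do not account for the replicate number. They therefore compare S34F replicate 1 with both wild-type replicates. Values in pairs are replicate 1 and then replicate 2.

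The sequence that NRF2 binds was looked for around the start sites of the genes, as a feature that the RNA values do not hold. Promoters (250 bases before to 50 bases after the start site, RefSeq, GRCh38.p14) were at hand for 24 of the 34 genes, in 31 windows. The core motif, TGAC and GC with any 3 bases between them (TGAC NNN GC), was searched on both strands. It occurred in 9 of the 31 windows, which belonged to 8 of the 24 genes, against 13.3% of all 35116 promoter windows. A match is a run of letters and not a measured binding site, and its absence from a window says nothing of elements farther away. Examples from 4 genes of glutathione, thioredoxin and NADPH supply show the element, each read along the strand of the motif with 11 bases on either side and with the motif in capitals. They lie at chr1:93909445-93909475 (+ strand), chr6:83431169-83431199 (- strand), chr12:104215669-104215699 (+ strand) and chr14:64942848-64942878 (+ strand).
GCLM: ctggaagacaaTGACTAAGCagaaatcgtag
ME1: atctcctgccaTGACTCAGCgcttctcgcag
TXNRD1: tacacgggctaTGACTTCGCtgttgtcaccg
GPX2: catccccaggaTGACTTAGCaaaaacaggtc
The match shown for GCLM lay 30 bases upstream of the start site, that for TXNRD1 95 bases, that for GPX2 118 bases and that for ME1 133 bases upstream. TXNRD1 held 3 matches in all and ME1 2. KEAP1 itself held 2 matches, 50 and 27 bases upstream of its start.

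The 34 genes were among the most abundant transcripts of these cells. The median of their mean levels was 221.7 FPKM, against 13.3 FPKM for all 14233 genes tested, and their median rank was the 97.2th percentile. Of the 34, 27 lay above the 90th percentile, and 7 were among the 100 most abundant genes. These 7 were FTL, the ferritin light chain (mean 3231 FPKM, rank 10), ALDH1A1, a retinaldehyde dehydrogenase (1876 FPKM, rank 23), FTH1, the ferritin heavy chain (1656 FPKM, rank 25), NQO1, a quinone reductase and the classical readout of NRF2 (1222 FPKM, rank 55), AKR1B10, a reductase of retinal and lipid aldehydes (1179 FPKM, rank 59), TXNRD1, thioredoxin reductase (875 FPKM, rank 96), and AKR1C2, a steroid and carbonyl reductase (840 FPKM, rank 98). The lowest was CBR3, a carbonyl reductase, at 8.10 FPKM and the 37.8th percentile, and it was the only member below the 75th percentile. Its paralog CBR1 stood at 100.9 FPKM. Of the regulators, NFE2L2 stood at 78.8 FPKM and KEAP1 at 41.6 FPKM, among the lower members together with HMOX1 (71.0 FPKM), ME1 (51.5 FPKM) and SLC7A11 (43.1 FPKM). These levels were a description and were not tested, since the list was made of genes known to be high in such lines.

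**Figure D1:**
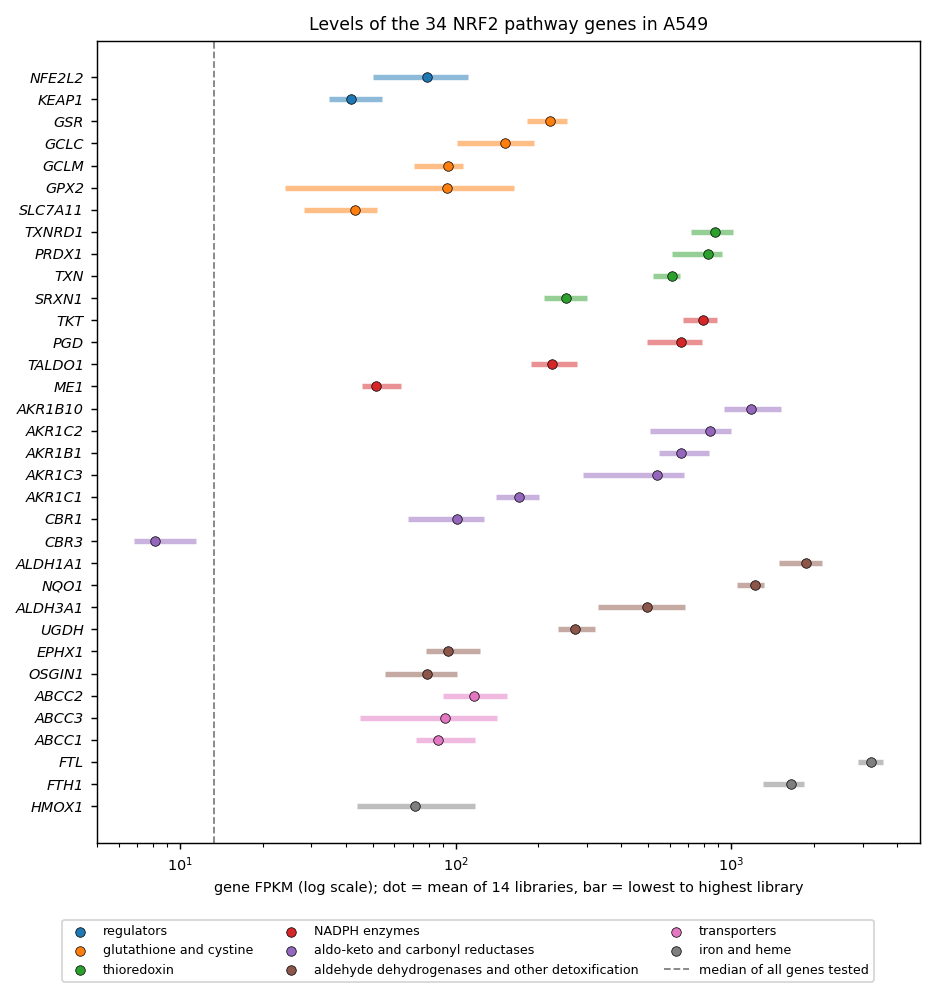
Mean gene FPKM over 14 libraries (dots, log axis) with the lowest and highest library (bars) for the 34 genes, coloured by role, and the median of all genes tested (dashed line). Only CBR3 lay below that median of 13.3 FPKM, and GPX2 had the widest range.

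Over the 34 genes the highest library was a median of 1.56 times the lowest. This was near the 1.70 times of all tested genes with a mean of at least 8 FPKM, which were not matched for level. FTL varied least, at 1.23 times, with 3557 and 3295 FPKM in v1 S34F, 3499 and 3146 in v3 S34F, 3448 and 3055 in v1 wild type, 3548 and 3201 in v3 wild type, 3293 and 3402 in the knockdown, 2992 and 2897 with the control siRNA, and 2949 and 2948 in untreated cells. All 10 libraries with the siRNA against U2AF1 lay above the 4 libraries without it, and no FTL comparison passed the test. NQO1 ranged over 1.25 times and TXN, thioredoxin, over 1.26 times. GPX2, a glutathione peroxidase of epithelia, varied most, at 6.78 times.

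NFE2L2 (ENSG00000116044, chromosome 2, 178092323 to 178257425, GRCh37) stood at 75.2 and 111 FPKM in v1 S34F, 82.8 and 110.1 in v3 S34F, 75.7 and 77.4 in v1 wild type, 76.1 and 93.7 in v3 wild type, 84.5 and 81.2 in the knockdown, 61.0 and 50.2 with the control siRNA, and 63.7 and 60.6 in untreated cells. Every library with the siRNA against U2AF1 lay above every library without it. The difference between knockdown and control siRNA was 0.57 on the log2(FPKM + 1) scale used for all changes here (SE 0.19, limma adjusted p = 0.137; 0.0574 with the replicate number as a block), and S34F against wild type gave 0.21 (SE 0.14, adjusted p = 0.494; -0.03 without replicate 2 of both S34F groups). KEAP1 (ENSG00000079999, chromosome 19, 10596796 to 10614417) stood at 49.8 and 54.2 FPKM in the knockdown, 37.1 and 51.5 with the control siRNA and 42.2 and 36.5 in untreated cells. With the constructs it was between 34.7 and 41.4 FPKM in all 8 libraries. Wild-type re-expression against knockdown gave -0.36 (SE 0.14, adjusted p = 0.231), and no KEAP1 comparison passed the test.

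The control siRNA with empty vector was compared with untreated cells to measure the effect of the procedure. None of the 34 genes passed an adjusted p under 0.05. By limma 0 of 14233 genes passed (0%), with 730 genes and 0 of the 34 at an unadjusted p under 0.05. With the replicate number as a block 0 of the 34 passed, against 0.0141% of all genes. Of the 34 genes, 11 were higher and 23 lower, while 45.9% of all genes were higher. The median log2 change was -0.03, against -0.02 over all genes. Both control siRNA libraries lay outside both untreated libraries in 4 of the 34 genes, against 29.3% of all genes tested. TXNRD1 and ALDH3A1 were higher and AKR1C2 and NQO1 lower in those 4. Beside these values, all 13 mitochondrially encoded genes were lower with the control siRNA (median log2 -0.92, 0 past the test). Their summed FPKM was 17287 to 35959 with the control siRNA and 36465 to 57791 in untreated cells. The sum of 17287 was that of control siRNA replicate 2, while control siRNA replicate 1 stood near untreated replicate 1. Their part in the results was not tested. ALDH3A1, an aldehyde dehydrogenase, had the largest change of the 34, at 597 and 680.5 FPKM with the control siRNA and 548 and 471.5 in untreated cells (log2 0.33, SE 0.16, adjusted p = 0.978).

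The knockdown was compared with the control siRNA to ask which of the genes change when U2AF1 is removed. Of the 34 genes, 3 passed the test, 2 of them higher and 1 lower, while 405 of all 14233 genes passed (2.85%; 0.787% higher and 2.06% lower). With the block the same 3 genes passed, against 11.8% of all genes. The median log2 change was 0.06 over the 34 genes and -0.01 over all genes, and both knockdown libraries lay outside both control libraries in 16 of the 34 (11 higher, 5 lower), against 51.4% of all genes. The 34 genes did not all share a direction, with 23 positive and 11 negative changes, while 48.3% of all genes were higher. Beside these results, all 13 mitochondrially encoded genes were higher in the knockdown (median log2 0.64, 0 past the test), with a summed FPKM of 36114 to 39728 in the knockdown and 17287 to 35959 with the control siRNA. The sum of 17287 was that of control siRNA replicate 2, while control siRNA replicate 1 stood near the knockdown. The part of these mitochondrial values in the results was not tested.

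ABCC3 (ENSG00000108846, chromosome 17, 48712138 to 48769613), an exporter of glucuronide and bile salt conjugates, stood at 58.0 and 45.0 FPKM in the knockdown, 105.5 and 141 with the control siRNA, and 115 and 141 in untreated cells. Both knockdown libraries lay below all 12 other libraries of the series. The fall was -1.24 (51.5 ± 9.14 FPKM in the knockdown against 123 ± 24.8 with the control siRNA, SD, n = 2 each; SE 0.18, limma adjusted p = 0.00973). It did not pass without control siRNA replicate 2 (-1.03, adjusted p = 0.0731) or without knockdown replicate 2 (-1.06, adjusted p = 0.114).
The other transporters did not share this. ABCC2, which exports glutathione conjugates, stood at 102 and 109 FPKM in the knockdown and 107 and 127 with the control siRNA (adjusted p = 0.776). ABCC1, a broad exporter of glutathione conjugates, stood at 72.5 and 85.2 FPKM in the knockdown and 71.8 and 91.0 with the control siRNA (adjusted p = 0.954).

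OSGIN1 (ENSG00000140961, chromosome 16, 83981887 to 83999937), an oxidative stress response gene that restrains growth, stood at 88.7 and 100.1 FPKM in the knockdown and 55.5 and 66.98 with the control siRNA, a rise of 0.62 (SE 0.13, adjusted p = 0.0303). GSR (ENSG00000104687), glutathione reductase, stood at 244.5 and 254.5 FPKM in the knockdown and 182 and 187 with the control siRNA, a rise of 0.43 (SE 0.10, adjusted p = 0.0461). In both genes both knockdown libraries lay above the control siRNA and untreated libraries. Leaving out any of the 4 libraries compared ended both calls, with adjusted p-values of 0.0695 to 0.217 for OSGIN1 and 0.103 to 0.249 for GSR, with changes of 0.49 to 0.75 and 0.41 to 0.46.

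Among the other genes of glutathione supply, SLC7A11, the cystine importer, was the only 1 of the 5 with a negative change. It stood at 31.4 and 28.1 FPKM in the knockdown and 49.7 and 36.3 with the control siRNA (log2 -0.50, SE 0.16, adjusted p = 0.118; 0.0560 with the block), and both knockdown libraries were the lowest of all 14. GCLC and GCLM, the catalytic and modifier subunits of glutamate-cysteine ligase, had changes of 0.35 and 0.28 (adjusted p = 0.350 and 0.394). GPX2 stood at 125 and 144 FPKM in the knockdown and 97.8 and 106 with the control siRNA (adjusted p = 0.777).

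All 4 genes of the thioredoxin system had positive changes in the knockdown, between 0.03 for TXN and 0.24 for SRXN1, the reductase of hyperoxidised peroxiredoxins, and none passed. SRXN1 stood at 282 and 259.5 FPKM in the knockdown and 244 and 216 with the control siRNA (adjusted p = 0.581). Of the NADPH enzymes, TALDO1, transaldolase, stood at 204 and 203 FPKM in the knockdown and 240.2 and 276 with the control siRNA, without overlap (log2 -0.34, SE 0.12, adjusted p = 0.152). PGD, TKT and ME1, which are 6-phosphogluconate dehydrogenase, transketolase and malic enzyme, had changes of 0.13, 0.12 and -0.25 (adjusted p = 0.721, 0.682 and 0.292). PGD and TKT are, like TALDO1, enzymes of the pentose phosphate pathway, and their changes had the opposite sign. TKT stood at 828 and 891 FPKM in the knockdown and 721.5 and 866 with the control siRNA, and ME1 at 46.9 and 54.5 FPKM in the knockdown and 57.0 and 63.3 with the control siRNA.

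The 7 aldo-keto and carbonyl reductases had changes between -0.26 (CBR3) and 0.06 (AKR1C2), and none passed. CBR3 stood at 7.43 and 7.78 FPKM in the knockdown and 7.53 and 11.4 with the control siRNA, with overlap. AKR1C1, AKR1C2 and AKR1C3 act on steroids and prostaglandins and are close copies, with 98.0% identical coding bases between AKR1C1 and AKR1C2, 91.4% between AKR1C1 and AKR1C3 and 91.0% between AKR1C2 and AKR1C3, so how reads were divided among them is uncertain. Of the other detoxification genes, ALDH3A1 stood at 411 and 494 FPKM in the knockdown and 597 and 680.5 with the control siRNA, without overlap (log2 -0.50, SE 0.16, adjusted p = 0.131). HMOX1, heme oxygenase, stood at 76.4 and 118 FPKM in the knockdown and 49.4 and 87.2 with the control siRNA, with overlap (log2 0.52, SE 0.30, adjusted p = 0.381). FTH1 had 0.28 (SE 0.12, adjusted p = 0.222). EPHX1 and UGDH, an epoxide hydrolase and the enzyme that supplies glucuronic acid for conjugation, had -0.20 and 0.27 (adjusted p = 0.556 and 0.288).

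**Figure D2:**
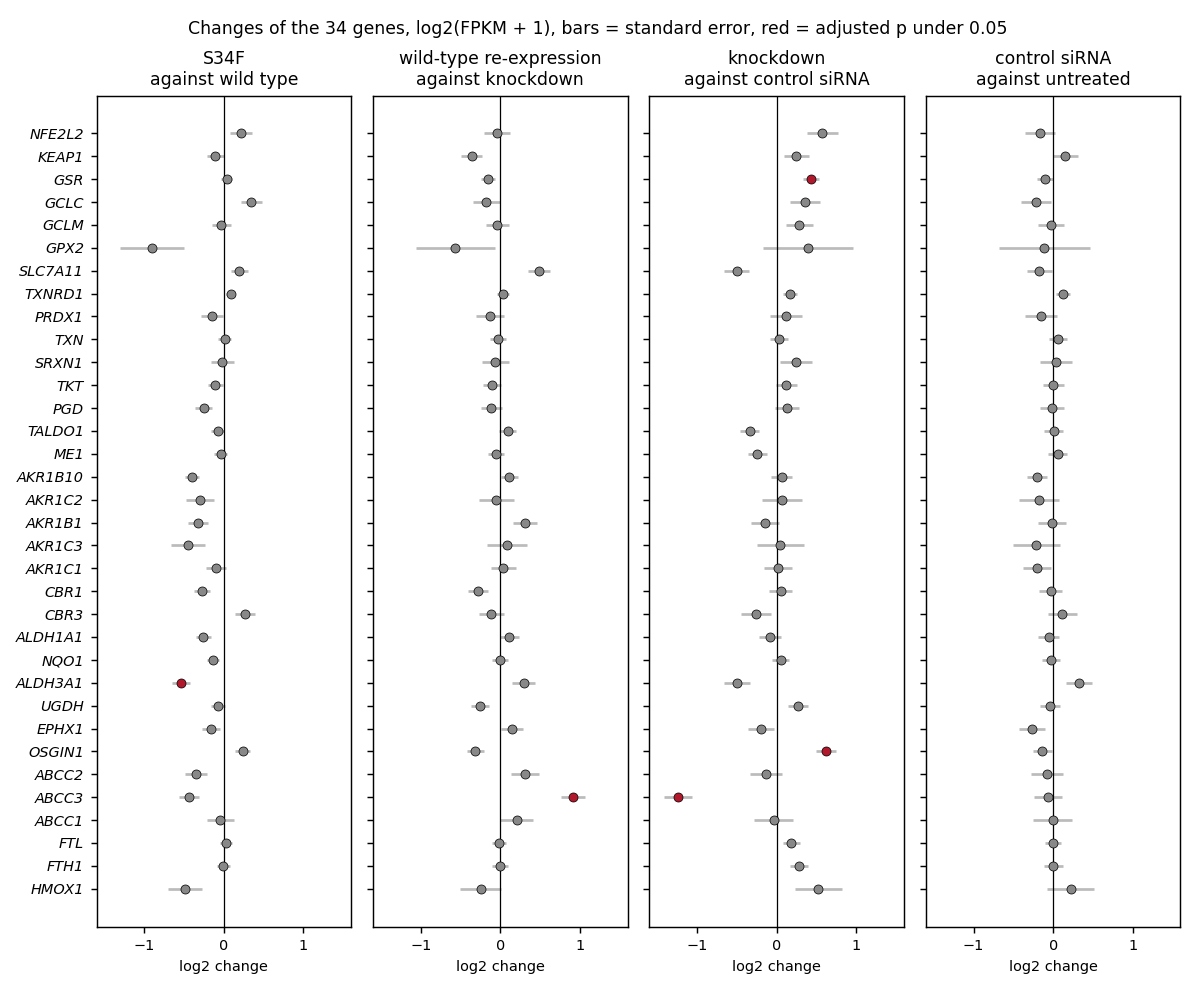
Log2 change of each of the 34 genes (dots, with standard error) in 4 comparisons, red where the adjusted p was under 0.05. Red dots mark ALDH3A1 for S34F, ABCC3 for re-expression, and ABCC3, OSGIN1 and GSR for the knockdown.

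Wild-type re-expression, averaged over v1 and v3, was compared with the same knockdown libraries to ask which genes change when U2AF1 is supplied again. Of the 34 genes 1, ABCC3, passed, as did 203 of all genes (1.43%; 1.04% higher and 0.386% lower). With the block 1 of the 34 passed, against 7.52% of all genes. Both comparisons use the knockdown libraries, so opposite signs in them are not independent. ABCC3 stood at 104 and 112.5 FPKM with v1 wild type and 86.9 and 88.1 with v3 wild type, against 58.0 and 45.0 in the knockdown. All 4 re-expression libraries were above the knockdown, and the change was 0.92 (SE 0.15, adjusted p = 0.0223). Leaving out any of the 6 libraries compared ended this call (changes of 0.74 to 1.10, adjusted p = 0.0571 to 0.360).
SLC7A11 stood at 42.2 and 47.3 FPKM with v1 wild type and 36.3 and 42.5 with v3 wild type, against 31.4 and 28.1 in the knockdown (log2 0.48, SE 0.14, adjusted p = 0.121; 0.0505 with the block). The groups did not overlap. OSGIN1 lay lower after re-expression, at 78.2 and 74.7 FPKM with v1 wild type and 76.5 and 73.2 with v3 wild type against 88.7 and 100.1 in the knockdown (log2 -0.31, SE 0.11, adjusted p = 0.199). Over the 34 genes the median change was -0.03, against 0.02 over all genes, and 14 genes did not overlap between groups (6 higher, 8 lower), against 34.4% of all genes. AKR1B1, aldose reductase, stood at 648 and 811 FPKM with v1 wild type and 676 and 834 with v3 wild type, against 556 and 639 in the knockdown (log2 0.31, SE 0.15, adjusted p = 0.362).

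**Figure D3:**
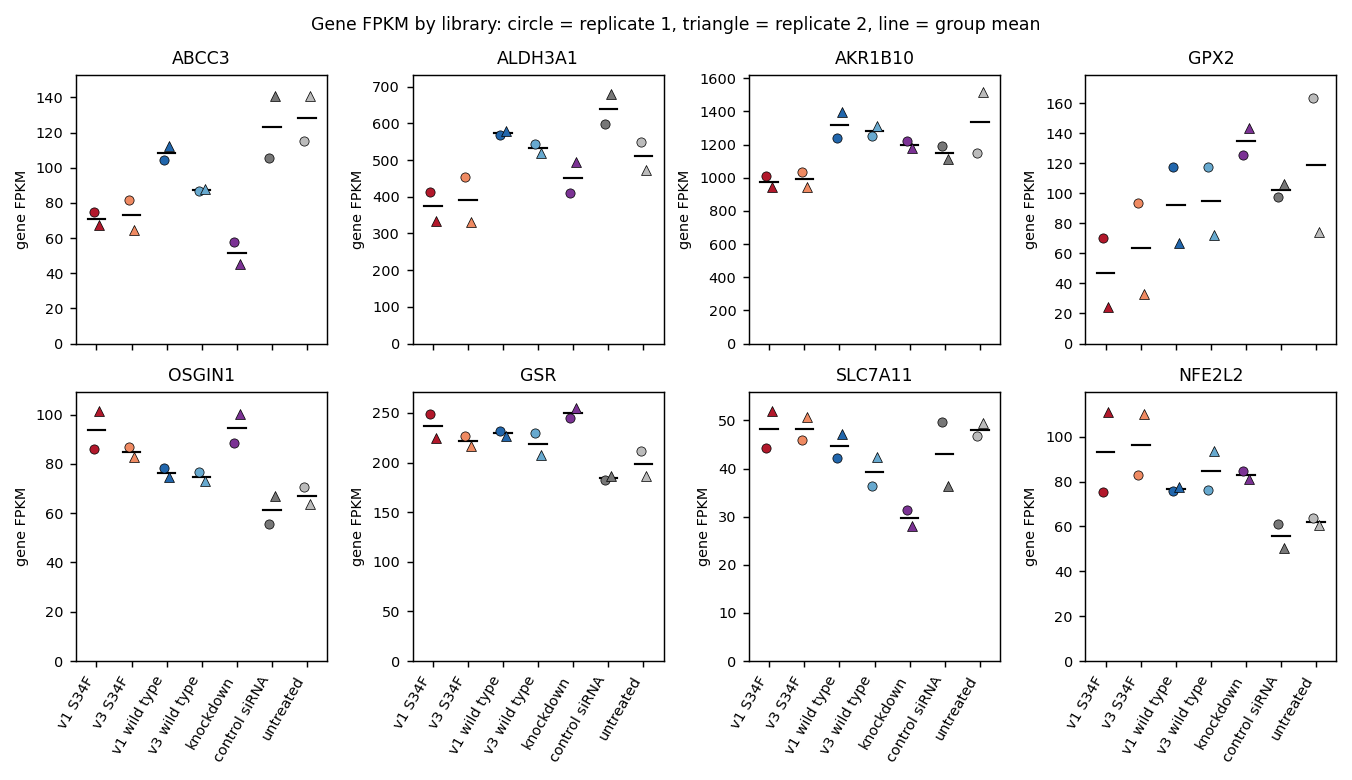
Gene FPKM in each library (circles for replicate 1, triangles for replicate 2) and group mean (lines) for 8 genes, from v1 S34F on the left to untreated cells on the right. ABCC3 was lowest in the knockdown, ALDH3A1 and AKR1B10 were lower in all S34F libraries than in all wild-type re-expression libraries, and GPX2 was lowest in replicate 2 of both S34F groups.

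The S34F change was compared with wild type, averaged over the v1 and v3 constructs. Of the 34 genes 1, ALDH3A1, passed, and it was lower, while 264 of all genes passed (1.85%; 0.583% higher and 1.27% lower). With the replicate number as a block, 5 of the 34 passed, all lower, against 7.98% of all genes (3.27% higher and 4.71% lower). Without replicate 2 of both S34F groups, 0 of the 34 passed. Within v1 alone 0 of the 34 genes passed, against 0.176% of all genes (0.0281% higher and 0.148% lower, and 2.17% with the block). At an unadjusted limma p under 0.05 there were 7 of the 34, and 1413 of all 14233 genes. Within v3 alone 0 of the 34 passed, against 0.0211% of all genes (0.00703% higher and 0.0141% lower, and 0.485% with the block). Here 2 of the 34 were at an unadjusted limma p under 0.05, and 917 of all 14233 genes. The S34F change did not differ between v3 and v1 at an adjusted p under 0.05 for any of the 34 (0% of all genes by limma, with 101 genes and 0 of the 34 at an unadjusted p under 0.05). The median change was -0.10 over the 34 genes and 0.02 over all genes. Of the 34, 9 were higher and 25 lower, while 54.6% of all genes were higher. Without replicate 2 of both S34F groups, 17 were higher and 17 lower, 10 of the 34 had the opposite sign, and the median was -0.01. This fit breaks the pairing by replicate number, since replicate 2 of wild type stays in. In replicate 1 alone AKR1C2 and AKR1C3, for example, were lower with S34F in both constructs. How much of the sign changes comes from the broken pairing was not tested.

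ALDH3A1 (ENSG00000108602, chromosome 17, 19641297 to 19652256), which oxidises aromatic and lipid aldehydes, stood at 413 and 335 FPKM with v1 S34F and 454 and 330.2 with v3 S34F, against 568 and 580.1 with v1 wild type and 545 and 519 with v3 wild type. All 4 S34F libraries lay below all 4 wild-type libraries. The change was -0.54 (374 ± 54.9 FPKM with v1 S34F and 392 ± 87.3 with v3 S34F, against 574 ± 8.76 with v1 wild type and 532 ± 18.0 with v3 wild type, SD, n = 2 each; SE 0.12, limma adjusted p = 0.0427). Without replicate 2 of both S34F groups it was -0.35 with an adjusted p of 0.347. The call was also lost without any 1 of the 4 wild-type libraries or of the 2 replicate 2 libraries of S34F (adjusted p = 0.118 to 0.169).

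AKR1B10 (ENSG00000198074, chromosome 7, 134212344 to 134226160) stood at 1009 and 945 FPKM with v1 S34F and 1035 and 947 with v3 S34F, against 1241 and 1395 with v1 wild type and 1255 and 1314 with v3 wild type. The groups were well apart, and S34F was also below the knockdown (1224 and 1177 FPKM), the control siRNA (1192 and 1111 FPKM) and untreated cells (1151 and 1517 FPKM). The change was -0.40 (SE 0.09, adjusted p = 0.0511; 0.0211 with the block). AKR1B1 stood at 548.5 and 599.5 FPKM with v1 S34F and 584 and 629 with v3 S34F, against 648 and 811 with v1 wild type and 676 and 834 with v3 wild type (log2 -0.32, SE 0.12, adjusted p = 0.232; 0.0216 with the block). The coding sequences of AKR1B1 and AKR1B10 are 76.1% identical. AKR1C3 stood at 532 and 290.4 FPKM with v1 S34F and 606 and 348 with v3 S34F, against 672 and 569.7 with v1 wild type and 623 and 480.2 with v3 wild type, with overlap (log2 -0.45, SE 0.21, adjusted p = 0.326; 0.0496 with the block). Without replicate 2 of both S34F groups the change was -0.35 for AKR1B10, -0.38 for AKR1B1 and -0.03 for AKR1C3 (adjusted p = 0.410, 0.550 and 0.959). Of the 7 reductases 6 had negative changes (4 of 7 without those libraries), and CBR3 was the exception at 0.27 (adjusted p = 0.356), with 7.86 to 10.0 FPKM in the S34F libraries and 6.82 to 7.25 in the wild-type libraries.

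All 3 transporters had negative changes with S34F. Without replicate 2 of both S34F groups the changes were -0.26 to -0.47, with S34F replicate 1 set against both wild-type replicates. ABCC1 and ABCC2 were higher in replicate 2 in all 7 groups, so for these genes that fit cannot separate S34F from the replicate number. In replicate 1 alone all 3 were lower with S34F in both constructs. For ABCC1 the gap was small there, at 75.1 and 76.1 FPKM against 78.8 and 76.3 (v1 and then v3). ABCC3 stood at 74.5 and 67.6 FPKM with v1 S34F and 81.6 and 64.3 with v3 S34F, against 104 and 112.5 with v1 wild type and 86.9 and 88.1 with v3 wild type. The groups did not overlap (log2 -0.44, SE 0.12, adjusted p = 0.111; 0.0529 with the block), and the S34F libraries lay above the knockdown. ABCC2 stood at 90.3 and 109 FPKM with v1 S34F and 99.7 and 114 with v3 S34F, against 123 and 149 with v1 wild type and 116 and 141 with v3 wild type (log2 -0.35, SE 0.14, adjusted p = 0.254; 0.0268 with the block). ABCC1 had -0.04 (adjusted p = 0.939).

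All 4 NADPH enzymes had negative changes, between -0.26 for PGD and -0.04 for ME1, with 0 past the test. Without replicate 2 of both S34F groups 2 of the 4 were negative, and PGD had -0.11. TKT and TALDO1 were positive there. In replicate 1 alone TKT was lower with S34F in both constructs, at 801 and 808 FPKM against 838 and 821. TALDO1 stood at 227 and 217 FPKM against 224 and 223. The TKT and TALDO1 pairs are v1 and then v3. The fit without those replicate 2 libraries set S34F replicate 1 against both wild-type replicates. PGD stood at 611 and 494 FPKM with v1 S34F and 655 and 539 with v3 S34F, against 707 and 679 with v1 wild type and 714 and 632.5 with v3 wild type (adjusted p = 0.269). ALDH1A1 stood at 1827 and 1500 FPKM with v1 S34F and 1865 and 1487 with v3 S34F, against 2049 and 1952 with v1 wild type and 2020 and 1922 with v3 wild type, without overlap (log2 -0.26, SE 0.10, adjusted p = 0.220; -0.10 without those libraries). NQO1 had -0.14 (adjusted p = 0.434; -0.02 without those libraries), while OSGIN1 had 0.23 (SE 0.09, adjusted p = 0.226), with S34F libraries at 83.0 to 102 FPKM and wild-type libraries at 73.2 to 78.2 FPKM.

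The genes of glutathione supply and of the thioredoxin system had no common sign. GCLC (ENSG00000001084, chromosome 6, 53362139 to 53481768) stood at 173 and 191 FPKM with v1 S34F and 152 and 192.5 with v3 S34F, against 129.7 and 150.0 with v1 wild type and 129 and 148 with v3 wild type, without overlap (log2 0.34, SE 0.13, adjusted p = 0.242; 0.22 without replicate 2 of both S34F groups). GPX2 stood at 70.0 and 24.1 FPKM with v1 S34F and 93.8 and 32.7 with v3 S34F, against 117 and 67.1 with v1 wild type and 117 and 72.2 with v3 wild type, with overlap (log2 -0.90, SE 0.40, adjusted p = 0.305; -0.15 without those libraries). Replicate 2 of GPX2 lay under replicate 1 in all 4 of these groups, and in replicate 1 alone GPX2 was lower with S34F in both constructs. GSR, GCLM and SLC7A11 had 0.03, -0.03 and 0.20 (0.09, 0.11 and 0.10 without those libraries). TXNRD1, TXN, SRXN1 and PRDX1, a peroxiredoxin, had changes from -0.15 (PRDX1) to 0.08 (TXNRD1). PRDX1 stood at 871 and 612 FPKM with v1 S34F and 876 and 631 with v3 S34F, against 892 and 792 with v1 wild type and 897 and 704 with v3 wild type (adjusted p = 0.676; 0.10 without those libraries). All 4 thioredoxin genes were positive without them, where S34F replicate 1 was set against both wild-type replicates. In replicate 1 alone PRDX1 was lower with S34F in both constructs.
FTL and FTH1 had 0.03 and -0.01 (adjusted p = 0.904 and 0.983), and both have many near-identical pseudogene copies, so their levels are uncertain. HMOX1 stood at 68.7 and 51.1 FPKM with v1 S34F and 66.8 and 44.1 with v3 S34F, against 79.7 and 80.2 with v1 wild type and 82.4 and 77.5 with v3 wild type, without overlap (log2 -0.49, SE 0.21, adjusted p = 0.288; -0.24 without replicate 2 of both S34F groups).

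Over all roles, 11 of the 34 genes had S34F and wild-type libraries that did not overlap, 8 lower (ABCC2, ABCC3, AKR1B1, AKR1B10, ALDH1A1, ALDH3A1, CBR1 and HMOX1) and 3 higher (CBR3, GCLC and OSGIN1). Over all genes 13.5% did not overlap (6.65% lower and 6.89% higher). Beside this, the summed level of the leukocyte and endothelial markers was 41.3 to 62.3 FPKM in the S34F libraries and 26.5 to 41.5 in the wild-type libraries, nearly all of it from CD68, while the defining markers VWF, CD3E and PTPRC were at or near 0. All 13 mitochondrially encoded genes were higher with S34F (median log2 0.11, 0 past the test). The part of these in the results was not tested.

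Across all 7 groups, a test for any difference passed for 1 of the 34 genes, ABCC3 (limma adjusted p = 0.0128), and for 717 of all genes (5.04%). Without replicate 2 of both S34F groups it passed for 0 of the 34 (ABCC3 adjusted p = 0.0667), as it did without knockdown replicate 2 (0.0509). With the block it passed for 8 of the 34 (ABCC3, CBR1, OSGIN1, TXNRD1, ALDH3A1, GSR, NFE2L2 and SLC7A11), against 21.7% of all genes. TXNRD1 stood at 1013 and 959.8 FPKM in v1 S34F, 960.3 and 908 in v3 S34F, 976 and 903 in v1 wild type, 905 and 843 in v3 wild type, 874 and 891.5 in the knockdown, 788 and 784 with the control siRNA, and 713.5 and 730.3 in untreated cells. Its untreated libraries were the lowest, those with the control siRNA next, and the 10 libraries with the siRNA against U2AF1 the highest (adjusted p = 0.0600; 0.0186 with the block).

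Isoform usage, an isoform's share of its gene's FPKM, was compared next, since U2AF1 acts on splicing. Of the 83 isoforms tested, 1 passed for S34F against wild type, against 0.681% of the 41727 isoforms tested in all. For the knockdown against the control siRNA 0 passed (0.129% of all), and for wild-type re-expression against the knockdown 0 (0.273% of all). For the control siRNA against untreated cells 0 passed (0.00959% of all). At an unadjusted limma p under 0.05 each of these 3 comparisons held 3 of the 83. Over all 41727 isoforms the counts under it were 4281, 4513 and 2145, in the same order. By limma 0 passed for S34F within v1, within v3 and for the difference between them (0% of all in each). At an unadjusted p under 0.05 there were 7 of the 83 within v1, against 3425 of all isoforms. Within v3 there were 4 of the 83 against 3074 of all, and for the difference 0 against 1325. S34F and wild-type libraries did not overlap for 12 of the 83 isoforms (14.5%), 7 higher and 5 lower, against 8.65% of all isoforms tested. Isoforms of the same gene share a total, so these 12 are not independent.

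The isoform that passed was ENST00000513939 of GCLC, the rate-limiting enzyme of glutathione synthesis. It made up 21.8% and 22.1% of the gene's FPKM with v1 S34F and 17.7% and 21.2% with v3 S34F, against 8.29% and 7.45% with v1 wild type and 4.92% and 6.02% with v3 wild type. It made up 19.4% and 21.7% in the knockdown, 6.89% and 3.14% with the control siRNA and 8.32% and 4.79% in untreated cells. The 6 libraries of S34F and the knockdown all lay above 17%, and the 8 others all lay under 9%. S34F against wild type gave 14.03 points (SE 1.96, limma adjusted p = 0.0226), with 14.07 points in v1 and 13.99 in v3. The knockdown against the control siRNA gave 15.5 points (SE 2.77, adjusted p = 0.0804), and wild-type re-expression against the knockdown -13.9 points (SE 2.40, adjusted p = 0.0567). S34F did not pass without replicate 2 of both S34F groups (13.1 points, adjusted p = 0.155), or without any 1 of the 4 wild-type libraries or either of these replicate 2 libraries (13.15 to 14.31 points, adjusted p = 0.0709 to 0.09352).

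ENST00000513939 leaves out exon 4 of 16 of the main transcript ENST00000229416. This exon lies at chr6:53516109-53516222 (- strand, GRCh38, GENCODE release 29), is coding and is 114 bases long, which is 38 codons, so its loss keeps the reading frame. The deposited model of the isoform is a 519-base piece of exons 1 to 6, whose exon lengths add up to 519 without exon 4 and 633 with it. The skipped exon is shown because it is the sequence whose inclusion differed, followed by the junction of exons 3 and 5 that skipping creates, with 15 bases of exon 3 in lower case and 15 of exon 5 in capitals.
GCLC exon 4: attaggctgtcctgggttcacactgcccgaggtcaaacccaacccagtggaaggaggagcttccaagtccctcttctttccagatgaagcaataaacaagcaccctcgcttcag
GCLC exons 3 and 5 joined: aacttcatttcccagTACCTTAACAAGAAA

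The skipping share was also counted over the annotated GCLC isoforms that include or skip exon 4. A retained-intron isoform across the exon, ENST00000505294 (mean 1.57 FPKM), was in neither class. Skipping isoforms held 31.1% and 36.7% of the FPKM with v1 S34F and 24.3% and 32.5% with v3 S34F. They held 12.7% and 12.3% with v1 wild type and 7.87% and 9.37% with v3 wild type. The share was 26.9% and 30.8% in the knockdown, 9.80% and 6.11% with the control siRNA, and 12.8% and 7.90% in untreated cells. Isoforms that skip exon 4 stood at 38.1 and 44.3 FPKM with v1 S34F and 27.8 and 42.1 with v3 S34F, against 11.4 and 12.8 with v1 wild type and 6.90 and 9.57 with v3 wild type. Isoforms that include it stood at 84.5 and 76.3 FPKM with v1 S34F and 86.7 and 87.6 with v3 S34F, against 78.5 and 91.3 with v1 wild type and 80.8 and 92.5 with v3 wild type. Transcripts that skip the exon were higher in every S34F library than in every wild-type library, while levels of those that include it overlapped between S34F and wild type. Because the model of ENST00000513939 is short, its FPKM rests on fragments from exons 1 to 6. The gene FPKM of GCLC holds these skipping isoforms too, so its higher value with S34F is not a measure of full-length transcripts. The full-length isoform ENST00000229416 made up 46.7% and 36.9% with v1 S34F and 52.7% and 42.0% with v3 S34F, against 55.6% and 54.1% with v1 wild type and 56.2% and 54.0% with v3 wild type (-10.4 points, SE 4.85, adjusted p = 0.451).

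**Figure D4:**
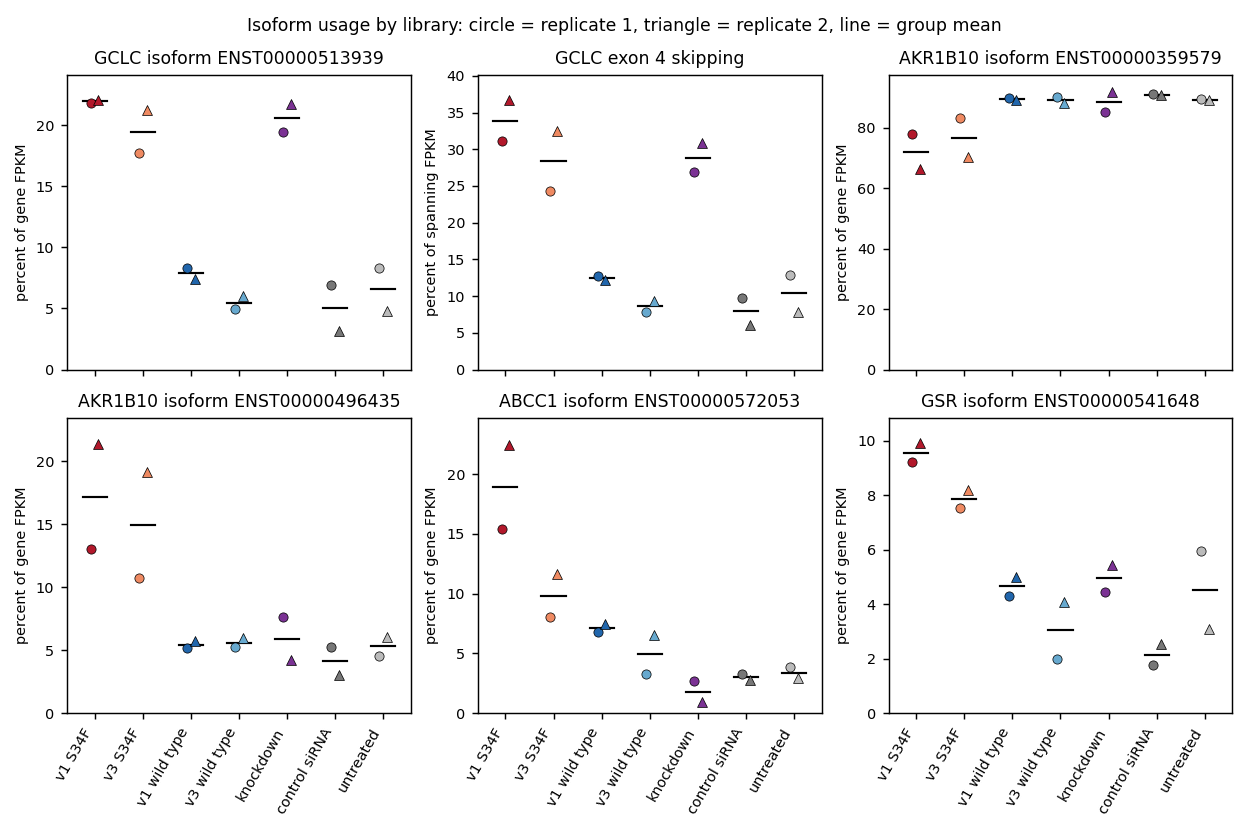
Usage of 5 isoforms as a percent of their gene's FPKM, and the skipping share of the FPKM of GCLC isoforms that include or skip exon 4, in each library (circles for replicate 1, triangles for replicate 2, lines for group means). The GCLC values were high with S34F and in the knockdown, while the AKR1B10, ABCC1 and GSR isoforms differed between S34F and wild type but did not pass the test.

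AKR1B10 had 3 isoforms without overlap between S34F and wild type, the most of the 27 genes, and none passed the test. Because they are shares of the same gene total, they are not 3 separate shifts. Its main isoform ENST00000359579 made up 77.8% and 66.3% with v1 S34F and 83.0% and 70.3% with v3 S34F, against 89.7% and 89.0% with v1 wild type and 90.1% and 88.0% with v3 wild type (-14.8 points, SE 3.51, adjusted p = 0.101). The isoform ENST00000496435, a processed transcript of 627 bases, made up 13.0% and 21.4% with v1 S34F and 10.8% and 19.2% with v3 S34F, against 5.14% and 5.72% with v1 wild type and 5.26% and 5.95% with v3 wild type (10.6 points, SE 2.47, adjusted p = 0.0973). In the knockdown it made up 7.61% and 4.22%, with the control siRNA 5.24% and 3.03%, and in untreated cells 4.51% and 6.08%, so that it was high with S34F and not in the knockdown.
This isoform enters exon 8 of 10 through a 3′ splice site 49 bases upstream of that of the main isoform (chr7:134538145-134538193, + strand, GRCh38). The bases between both sites, followed by 10 bases of the main isoform's exon, are shown because they hold the end of the main isoform's intron, with its last 3 bases in capitals. The base before the AG is T.
AKR1B10 exon 8 boundary: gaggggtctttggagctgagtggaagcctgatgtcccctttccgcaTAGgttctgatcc
The annotated isoform also starts inside exon 7, so its usage is not a measure of this site alone.

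Isoforms of 4 other genes also lay apart. ABCC1 isoform ENST00000572053, annotated as a target of nonsense-mediated decay, made up 15.4% and 22.4% with v1 S34F and 8.06% and 11.6% with v3 S34F, against 6.78% and 7.43% with v1 wild type and 3.29% and 6.56% with v3 wild type (8.38 points, SE 1.90, adjusted p = 0.0899). In the knockdown it made up 2.66% and 0.907%, the lowest pair of all groups. GSR isoform ENST00000541648 made up 9.21% and 9.90% with v1 S34F and 7.53% and 8.17% with v3 S34F, against 4.31% and 5.01% with v1 wild type and 2.00% and 4.07% with v3 wild type (4.85 points, SE 1.30, adjusted p = 0.147).
CBR1 isoform ENST00000290349, the main one, made up 81.3% to 93.2% in the S34F libraries and 94.0% to 98.1% in the wild-type libraries (-8.49 points, SE 2.63, adjusted p = 0.212). NFE2L2 isoform ENST00000446151 made up 16.1% to 26.3% in the S34F libraries and 8.34% to 12.7% in the wild-type libraries (9.74 points, SE 3.25, adjusted p = 0.250), and ENST00000397063 of the same gene made up 14.2% to 29.1% in the S34F libraries and 32.9% to 38.2% in the wild-type libraries (-12.4 points, SE 5.30, adjusted p = 0.394). Untreated cells had 20.4% and 20.2% of ENST00000446151, which lay inside the S34F range. The remaining pair without overlap, ENST00000380554 of AKR1C3 and ENST00000380872 of AKR1C1, differed by 2.71 and -2.36 points (adjusted p = 0.805 and 0.744). Of the 283 isoforms, 267 were found in GENCODE release 29 and 250 had the same length there.

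Other genes of the pathway were counted from 3 further lists, and 0 of their genes passed between any 2 of the groups compared. In the test for any difference among the 7 groups MAFF and NR0B1 passed, against 5.04% of all genes. Of 20 symbols for partners, competitors and degraders of NRF2, 18 were tested, and S34F against wild type gave 11 higher, with a median log2 change of 0.13 (0.02 over all genes). MAFF, a small MAF protein that pairs with NRF2, stood at 6.01 and 10.3 FPKM with v1 S34F, 7.30 and 12.3 with v3 S34F, 4.92 and 4.42 with v1 wild type, 5.48 and 6.42 with v3 wild type, 3.80 and 3.51 in the knockdown, 3.92 and 2.77 with the control siRNA, and 1.93 and 1.70 in untreated cells (any difference, limma adjusted p = 0.0181). It was lowest in untreated cells, and the S34F and wild-type libraries overlapped (log2 0.63, SE 0.19, adjusted p = 0.137). SQSTM1, an autophagy receptor that sequesters KEAP1, had -0.43 in the knockdown (SE 0.10, adjusted p = 0.0510) and 0.20 with S34F (adjusted p = 0.200). Of 33 other reported NRF2 targets, 28 were tested, with a median of -0.08 for S34F and -0.11 for the knockdown, and the largest S34F changes were in GLRX, glutaredoxin (-0.70, SE 0.25, adjusted p = 0.192), PIR, an iron-binding nuclear protein (-0.47, adjusted p = 0.255), and PANX2, a pannexin (0.26, adjusted p = 0.457). NR0B1, an orphan nuclear receptor, stood between 44.4 and 55.2 FPKM in the 10 libraries with the siRNA against U2AF1, at 32.1 and 43.2 FPKM with the control siRNA and at 31.7 and 33.9 FPKM in untreated cells (any difference, adjusted p = 0.0485). Of 18 antioxidant enzymes not counted as NRF2 targets, 15 were tested, with medians of -0.05 for S34F and 0.16 for the knockdown.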

How the data were processed

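RNA-seq of 14 A549 libraries was analysed in 7 groups of 2, taken from the sample titles. The submitters' processing notes name Trimmomatic 0.30, TopHat2 2.0.12 and GRCh37; which program made the FPKM values is not given in the sources used here. The deposited tables hold FPKM per isoform with confidence bounds, per the file headers. They also hold a coverage signal per isoform, per the file headers, which the tests did not use. Gene FPKM was the sum over a gene's isoforms. Depth was estimated from genes with a single isoform, whose low FPKM values fell on whole fragments (95.5% to 97.0% within 0.05 of a fragment). FPKM of other genes are model estimates, so no count test was run.

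limma 3.58.1 (R 4.3.3, with trend) was fitted to log2(FPKM + 1) of 14233 genes with a mean FPKM of at least 1, with 7 group means, 7 residual and 3.92 prior degrees of freedom. The log2(FPKM + 1) scale understates changes of low genes. Isoform usage was tested in percent for isoforms with a mean usage of 5 to 95 percent. Adjustment was by Benjamini-Hochberg over all features, with 0.05 as threshold. The fit was tested on simulated data. Promoters came from RefSeq (GRCh38.p14) and exons from GENCODE release 29 transcripts (GRCh38), read with Biopython 1.88 (Python 3.11). Deviations of same-numbered libraries from their group means correlated at 0.16 to 0.57 (median 0.37) in all 21 pairs of groups. Replicate numbers were therefore taken as pairing the libraries, but the main fit and the leave-out fits ignored this pairing. The main p-values thus rest on a spread that includes the difference between replicate numbers. With the block 1136 genes passed for S34F against 264 without it, and 1681 against 405 for the knockdown. The block was an alternative, as were the pseudocount, the filter, scaling and leaving out libraries. The members and lists were chosen with earlier results of these data known. Named genes are those that passed a test, NFE2L2, KEAP1, and per role the most abundant member and the largest change in each comparison; genes outside this rule were named after their values were seen. Strand of counting is not stated, so overlapping and antisense genes can share reads.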

Additional observations from a re-analysis of the deposited data

How the results depend on the processing

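The count of the 34 genes that passed in the knockdown comparison was 3, and it was 1 with no filter on mean FPKM; for wild-type re-expression it was 1, and 0 with no filter. For S34F against wild type it was 1, and became 2 with a pseudocount of 0.1, 0 with no filter, 5 with the replicate block and 0 without replicate 2 of both S34F groups, an alternative chosen after seeing the data. For any difference among the 7 groups it was 1, and became 3 with quantile normalization, 8 with the replicate block and 0 without replicate 2 of both S34F groups. Of isoforms, 1 passed in the knockdown and 1 in wild-type re-expression, in place of 0, with a gene filter of mean FPKM 5 or more, both times ENST00000513939 of GCLC (adjusted p = 0.0491 and 0.0294), and 0 in place of 1 passed for S34F without those replicate 2 libraries. The filters change how many features share the adjustment, and the cause of the other moves was not tested. Without each library in turn, the counts ranged from 0 to 1 for the knockdown, 0 to 0 for wild-type re-expression, 0 to 1 for S34F, 0 to 2 for any difference and 0 to 2 for S34F isoforms. A group left with 1 library was assumed to vary like the others. The replicate block changed no other call. Over single genes and the GCLC isoform, 1453 of 1497 alternative values kept their side of the threshold, 35 lost the call and 9 gained it. The sign turned in 142 of them, 0 of which were called. Depth was at least 105 fragments per gene, so counting error at the lowest library was 9.76% for CBR3, 6.74% for GPX2 and at most 3.07% for the others, and 2 libraries per group set the precision.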

Other observations

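In some of the 34 genes the replicate numbers differed in the same direction in all 7 groups. How many of all genes did so was not counted, so it cannot be called a trait of the 34. Replicate 2 was lower in every group for SRXN1, PRDX1, AKR1C2 and AKR1C3 (mean log2 differences of -0.30, -0.27, -0.34 and -0.42), and higher in every group for AKR1B1, ABCC1 and ABCC2 (0.25, 0.36 and 0.28). The related transporter ABCC3 was lower in replicate 2 in 3 of 7 groups. GPX2 had a mean difference of -0.76, with replicate 2 lower in 5 of 7 groups, the exceptions being the knockdown and the control siRNA. Outside the 34 genes, the epithelial gene KRT19 stood at 10.2 to 24.7 FPKM in the 7 replicate 1 libraries and at 31.1 to 76.8 in the 7 replicate 2 libraries.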
